A study of Mus musculus with 36 samples.

Results

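The fourteenth day of recovery, day 35, was read on 4 spotted 2-colour cDNA arrays, 4 of the 36 arrays in the series, and these were taken by their titles. On each array RNA from whole lungs of BALB/c mice that had spent 21 days at 0.5 atm and then 14 days at sea level was hybridised together with RNA from lungs of time-matched control mice. Each of the 2 RNAs was a single pool from 5 mice, so the 4 arrays have no recorded separate animals behind them, and p-values here describe array-to-array spread alone, part or all of which may be technical. The other 8 time points, used here for comparison, are days 1, 3, 7, 14 and 21 of hypoxia and days 22, 24 and 28, which fall 1, 3 and 7 days after the return to sea level, with 4 arrays and a control pool each. A value is a log2 ratio of lung exposed to hypoxia over control lung. That direction is likely but not settled, since its basis is how the protocol lists groups and dyes, and no swap of dyes is recorded.

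Chronic low oxygen narrows the small arteries of the lung and thickens their walls with smooth muscle and matrix, which raises pulmonary arterial pressure and loads the right heart. Low oxygen also raises red cell production. In rodents brought back to normal air, pressure and wall thickness decline over weeks while the matrix is degraded and rebuilt, and the day 35 arrays sample lung within that period. Whole lung holds endothelium, smooth muscle, epithelium, fibroblasts, leukocytes and blood, and in such bulk RNA fewer cells of a type and less RNA per cell cannot be told apart.

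On the 4 arrays 14872 to 15042 of 15388 spots had a value, with array SDs of 0.20 to 0.25. Spots with 1 gene symbol were averaged by gene, and 12461 features (6902 of them genes) had values on at least 3 of the 4 arrays. The number of arrays limits the precision. Because ratios carry no absolute level, the labelled tissue could not be checked by the presence of its markers. The arrays fell into 2 pairs. Across features, which are not independent replicates, the 4 arrays had a Pearson r of 0.77 between replicates 1 and 2 and of 0.67 between replicates 3 and 4, but of 0.14 to 0.31 across these pairs. Replicates of the same pair also resembled each other between days, with a median r between day 35 and the other days of 0.24 to 0.51 within a pair number and of 0.00 to 0.16 across. What the pairs stand for was not tested, and each pair is therefore given apart.

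At day 35 a small part of the lung profile differed from control. Of 12461 features, 394 passed limma's test against 0 at a Benjamini-Hochberg adjusted p under 0.05 (3.16%), with 225 higher (1.81%) and 169 lower (1.36%) in lung exposed to hypoxia. The called features included 270 named genes, 154 higher and 116 lower, and 124 spots with no single symbol. Most differences were small, with a median size of 0.39 on the log2 scale. Only 40 features were over 2-fold higher and 2 were over 2-fold lower, S100a9 and Stfa1. The split between directions moved with scaling: 57.1% of calls were higher here, against 46.3% of 1383 calls when all arrays were brought to a common spread. Leaving out any single array left 228 (without replicate 2) to 261 calls (without replicate 3), with 257 without replicate 1 and 254 without replicate 4. The hypoxia days had 557 to 4351 calls, and days 22, 24 and 28 had 192, 359 and 3942.

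Taken alone, replicates 1 and 2 gave 255 calls (2.08%), 157 higher (1.28%) and 98 lower (0.801%). Replicates 3 and 4 gave 671 (5.43%), 389 higher (3.15%) and 282 lower (2.28%). The pairs shared 121 calls in the same direction (1% of 12079 features), 95 higher (0.786%) and 26 lower (0.215%), and 2 in opposite directions (0.0166%). Both of those were spots with no gene symbol. Of the features with a value on all 4 arrays, 392 were called with a single sign on every array (3.25%). Called or not, 2893 had a single sign on every array (24%). The pair means of all features correlated at r = 0.28 and had the same sign in 47.0%. Of the 394 features called on all 4 arrays, 165 were called in replicates 1 and 2 alone and 261 in replicates 3 and 4 alone. With the 2 arrays of each pair averaged and 18 pair means in the fit, 110 features passed, 87 higher and 23 lower, and all 110 were among the 394. The plot of pair means shows the called features along the diagonal and a wide cloud of uncalled ones without that order. The calls came from the mean of the same 4 arrays. That order therefore follows in part from the selection and does not by itself show agreement between the pairs.

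**Figure D1:**
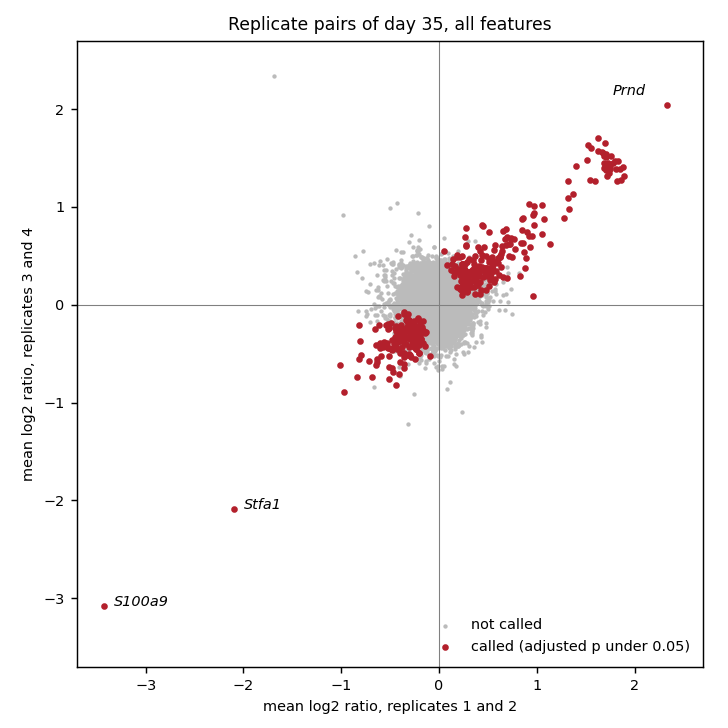
Each point is 1 of 12079 features at day 35, with the mean log2 ratio of replicates 1 and 2 on the horizontal axis and that of replicates 3 and 4 on the vertical axis, and features with an adjusted p under 0.05 over all 4 arrays in red. Prnd (2.33 and 2.04), Stfa1 (-2.09 and -2.08) and S100a9 (-3.42 and -3.08) lie far from 0 in both pairs, while over all features r is 0.28.

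Prnd had the highest ratio of all genes. Its product doppel resembles the prion protein, and in mice it is known from testis and from endothelial cells of the young brain. Its log2 ratios were 1.98, 2.68, 1.58 and 2.50 on the 4 arrays, a mean of 2.18 ± 0.50 (SD, n = 4 arrays) or 4.54-fold (adjusted p = 1.55e-13). The lowest of these lay above every array of every other day, where day means ran from -0.05 at day 1 to 1.29 at day 22.

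Other endothelial genes were among the calls. Emcn encodes endomucin, a sialomucin of capillary and venous endothelium, and had ratios of 1.36, 1.30, 1.02 and 0.95, a mean of 1.16 ± 0.20 (adjusted p = 3.85e-08). Cd34, a sialomucin of endothelium and progenitor cells, averaged 0.67 ± 0.13 (adjusted p = 2.96e-05). Procr, the receptor that promotes activation of protein C, averaged 0.49 ± 0.06 (adjusted p = 9.29e-07). Of 15 endothelial genes tested, 4 rose and 1 fell, against 1.81% and 1.36% of all features, and the list's median was 0.03, against 0.00 over all features. With arrays brought to a common spread 4 members were higher and 4 lower. The member that fell was Ednrb, the endothelin B receptor, at -0.48 ± 0.13 (adjusted p = 3.3e-05), which was also the single call among 14 genes of vasoactive pathways. All 5 were called in each pair alone. The other 10 members did not pass, among them Cdh5, the junctional VE-cadherin (0.02), Esam (0.14) and Ets1 (-0.34).

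Hemoglobin spots stood far above control. Alas2, the red cell form of the first enzyme of heme synthesis, and the globin chains it serves are made in red cell precursors and stay in reticulocytes. Hbb-b1, an adult beta-globin, had ratios of 1.80, 1.71, 1.65 and 1.40, a mean of 1.64 ± 0.17 or 3.12-fold (adjusted p = 1.93e-15). All 4 arrays were high, with replicate 4 the lowest. The globin family has near-identical copies that can share signal on a cDNA spot, so the values under the embryonic gene names Hba-x (1.41 ± 0.06) and Hbb-y (1.29 ± 0.10) cannot be assigned to those genes. Over all 29 spots annotated to hemoglobin genes, 22 of which carry several symbols, the day 35 means ran from 1.09 to 1.68 with a median of 1.59. Most of those 22 name the histone gene H3f3a beside Hba-a1 and Hba-a2. Alas2 had ratios of 0.99, 0.91, 0.71 and 0.68 and averaged 0.83 ± 0.15 (adjusted p = 0.000568), and it did not pass with pair means as the unit (adjusted p = 0.184). The other 14 tested members of the hemoglobin and heme list, such as the red cell anion exchanger Slc4a1 (0.05), the heme enzymes Alad (-0.19) and Fech (-0.02) and the erythroid factor Gata1 (0.02), were not called.

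Hemoglobin ratios moved up and down over the series, with their highest medians at days 7 and 35. The median over the 29 spots was 1.31, 0.79, 1.52, 0.96 and 0.50 on hypoxia days 1, 3, 7, 14 and 21, then 1.25, 0.17, -0.58 and 1.59 on days 22, 24, 28 and 35. Of the 40 features over 2-fold higher at day 35, 25 were made of spots annotated to hemoglobin genes, alone or with other symbols. Spots of 1 gene had been averaged. Another 9 followed the hemoglobin mean over the 36 arrays with r over 0.9, and 6 did not. Among those 9 were Phtf1, named for a putative homeodomain factor (1.49 ± 0.08, r = 0.99), and Got2, the mitochondrial aspartate aminotransferase (1.43 ± 0.21, r = 0.97). For comparison, r with the hemoglobin mean was 0.85 for Alas2, 0.48 for Peg3, 0.28 for Prnd and 0.23 for Emcn. These are descriptions over arrays that share pools and days, and the part of blood content or of spot identity in them was not tested.

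**Figure D2:**
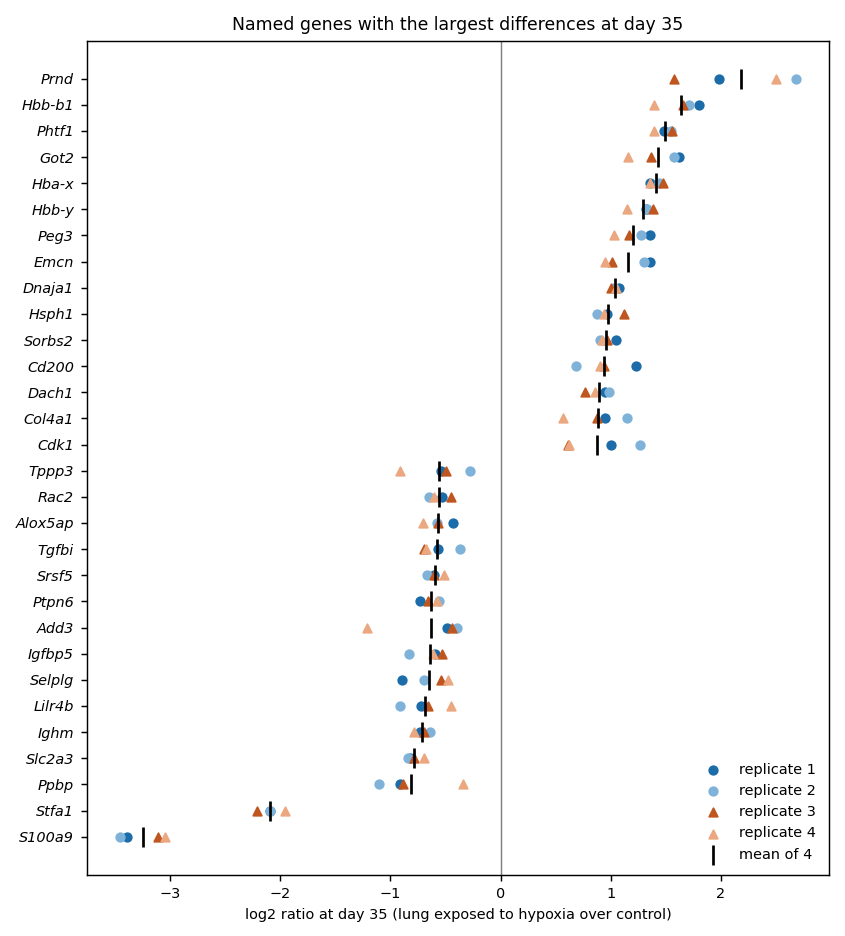
Log2 ratio at day 35 of the 15 named genes with the highest and the 15 with the lowest mean among those that passed, 1 row per gene, with replicates 1 and 2 as circles, 3 and 4 as triangles and the mean of 4 as a bar. All points of a row lie on one side of 0, from 2.18 on average for Prnd to -3.25 for S100a9, and 1 array of Add3 (-1.21) and 1 of Ppbp (-0.35) stand away from the other 3.

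Heat shock proteins bind unfolded proteins in the cytosol and in mitochondria. Hsp70 proteins such as Hspa8 work with J-domain partners (Dnaja1, Dnajb1, Dnajb4) that deliver clients, and with exchange factors (Hsph1, Bag3) that reset them. Of 33 such genes tested, 10 rose and none fell, against 1.81% and 1.36% of all features, and the median of the list was 0.10. Higher on all 4 arrays were 19 of the 33, against 11.1% of all features. Hypoxia day 14 had a list median of 0.12, with 24 of the 33 above 0, against 29 at day 35. Dnaja1 had ratios of 1.07, 1.03, 1.00 and 1.04, a mean of 1.04 ± 0.03 or 2.05-fold (adjusted p = 2.83e-18). These 4 values nearly coincide, and the 3 spots of the gene gave 1.12, 1.19 and 0.81.

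Hsph1 had ratios of 0.96, 0.88, 1.12 and 0.94 and averaged 0.98 ± 0.10 (adjusted p = 1.17e-06). Dnajb1 averaged 0.76 ± 0.28 (adjusted p = 4.14e-08), with replicate 2 at 1.08 and replicate 4 at 0.39. Chordc1, an Hsp90 partner, averaged 0.71 ± 0.04 (adjusted p = 1.04e-13). All of these values were above 0 in both pairs. Bag3 averaged 0.67 ± 0.08, and Hspa8 0.60 ± 0.08 with its 6 spots between 0.54 and 0.64. Dnajb4 (0.42), the small heat shock protein Hspb8 (0.32), the inducible Hsp90 gene Hsp90aa1 (0.27) and the chaperonin subunit Cct4 (0.17) completed the 10. Most chaperonin and mitochondrial members stayed near 0, such as Cct3 (0.03), Tcp1 (0.05), Hspa9 (0.06) and Trap1 (0.03). With pair means as the unit 5 of the 10 passed, and Hspa8 did not (adjusted p = 0.0942). Each array left out in turn left 9.

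Among chaperones of the endoplasmic reticulum (ER) no call was higher. They fold secreted and membrane proteins and are induced by the unfolded protein response. Of 28 genes tested none rose and 1 fell, against 1.81% and 1.36% of all features. The list's median was -0.11, and 15 of the 28 were lower on all 4 arrays, against 12.9% of all features. With arrays brought to a common spread 2 of the list were higher and 10 lower. The member that fell was Hspa5, the ER Hsp70 also called BiP, with ratios of -0.30, -0.33, -0.12 and -0.19 and a mean of -0.23 ± 0.10 (adjusted p = 0.0393). That call rested on all 4 arrays, since without replicates 1, 2, 3 or 4 the adjusted p was 0.233, 0.28, 0.0547 and 0.098. Hsp90b1, the ER Hsp90, averaged -0.28 ± 0.14 without passing (adjusted p = 0.164). The stress transcription factor Atf4 (0.42) and the pseudokinase Trib3 (0.31) had the highest values of the list and did not pass either.

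**Figure D3:**
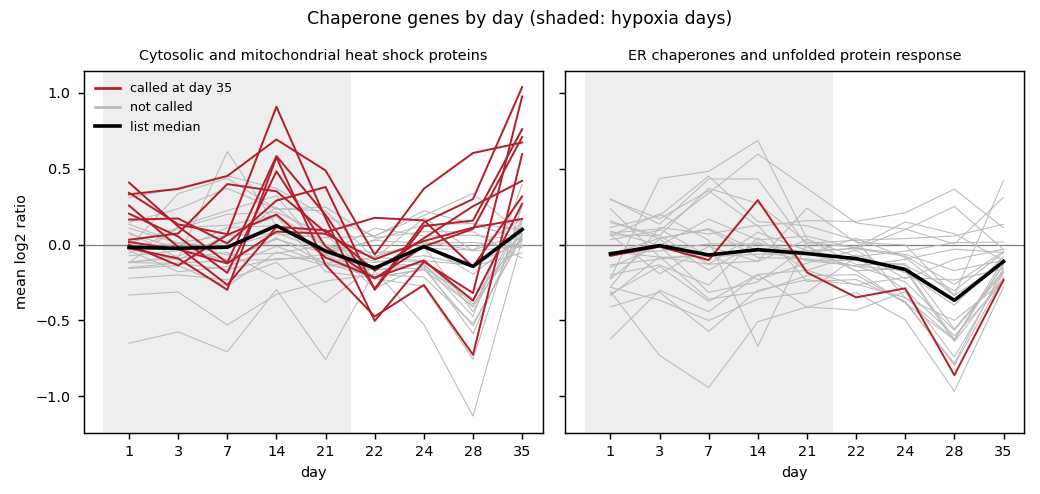
Day means of log2 ratios for 33 cytosolic and mitochondrial heat shock genes (left) and 28 ER chaperone genes (right) over the 9 days, evenly spaced, with hypoxia days shaded, genes called at day 35 in red and the list median in black. The 10 called heat shock genes had a median of 0.42 at day 14, -0.22 at day 22 and 0.63 at day 35, where they were chosen for being high. The median of all 33 was 0.12 at day 14 and 0.10 at day 35, while the ER median was -0.11 at day 35.

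The promoters of the chaperone genes were searched for several motifs. The 2 described first are one known from heat shock genes and one from ER chaperone genes. For these, 5 windows are shown to set the members with and without a match side by side. The windows are RefSeq's (GRCm38.p6), 250 bases before to 50 after each annotated start. The heat shock element is bound by heat shock factors and was searched on both strands as the 3 units GAA, TTC and GAA with 2 free bases (N) between neighbours. It stands in 0.603% of 32851 promoters, in 4 of 27 tested heat shock genes with a promoter and in none of 23 ER genes. The ER stress element (ERSE), searched on both strands as CCAAT, 9 free bases and CCACG, stands in 0.119% of promoters, in 6 of the 23 ER genes and in none of the 27. Of the other motifs searched, CCAAT alone stands in 37.4% of promoters, in 13 of the 27 and in 16 of the 23. CACGTG stands in 7.15% of promoters, in 2 of the 27 and in 4 of the 23. TGACGTCA stands in 1 gene of each list and TGACGTGG in none. ATTGG, 1 free base and CCACG stands in 1 ER gene and in none of the 27. Of 7 called heat shock genes with a promoter, Hsph1 and Chordc1 held the heat shock element. Below, Hsph1 (chr5:149636287-149636586, minus strand) has 1 match after its start, Chordc1 (chr9:18292017-18292316, plus strand) has 3 that overlap, and Dnaja1 (chr4:40722218-40722517, plus strand), the listed gene with the highest ratio, has none in this or in its other 2 windows. Hspa5 (chr2:34771840-34772139, plus strand) has 1 ERSE and Hsp90b1 (chr10:86705395-86705694, minus strand) has 2, on opposite strands. Capitals mark the matches, which are descriptions of letters and not shown to be bound.
Hsph1: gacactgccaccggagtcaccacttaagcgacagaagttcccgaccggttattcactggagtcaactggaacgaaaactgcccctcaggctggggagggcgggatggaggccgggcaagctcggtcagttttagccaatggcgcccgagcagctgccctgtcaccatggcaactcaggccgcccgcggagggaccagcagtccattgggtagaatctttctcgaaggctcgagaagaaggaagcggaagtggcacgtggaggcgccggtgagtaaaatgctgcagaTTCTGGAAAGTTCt
Chordc1: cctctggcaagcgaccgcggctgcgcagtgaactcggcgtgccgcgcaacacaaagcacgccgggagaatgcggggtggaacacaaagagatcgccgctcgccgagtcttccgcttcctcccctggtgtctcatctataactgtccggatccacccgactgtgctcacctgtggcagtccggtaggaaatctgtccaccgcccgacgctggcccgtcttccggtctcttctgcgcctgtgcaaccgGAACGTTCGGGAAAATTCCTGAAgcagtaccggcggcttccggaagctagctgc
Dnaja1: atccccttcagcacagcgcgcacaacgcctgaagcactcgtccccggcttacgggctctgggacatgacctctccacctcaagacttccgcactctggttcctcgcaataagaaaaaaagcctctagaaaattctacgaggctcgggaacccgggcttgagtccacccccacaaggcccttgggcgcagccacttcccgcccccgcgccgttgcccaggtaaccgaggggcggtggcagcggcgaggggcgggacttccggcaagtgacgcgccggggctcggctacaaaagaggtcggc
Hspa5: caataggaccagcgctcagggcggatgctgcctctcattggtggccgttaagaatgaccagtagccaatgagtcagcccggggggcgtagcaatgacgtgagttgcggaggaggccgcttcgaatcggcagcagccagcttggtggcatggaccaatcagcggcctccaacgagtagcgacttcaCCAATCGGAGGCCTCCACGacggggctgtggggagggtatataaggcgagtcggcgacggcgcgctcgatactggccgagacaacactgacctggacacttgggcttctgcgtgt
Hsp90b1: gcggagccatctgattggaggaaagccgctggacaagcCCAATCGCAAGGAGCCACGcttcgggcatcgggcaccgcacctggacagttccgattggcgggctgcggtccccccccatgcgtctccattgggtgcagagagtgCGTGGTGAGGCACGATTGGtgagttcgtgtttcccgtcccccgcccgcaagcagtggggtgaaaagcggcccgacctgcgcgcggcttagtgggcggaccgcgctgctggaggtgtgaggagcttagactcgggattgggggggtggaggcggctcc

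Calls in the collagen list and in the list of elastic fibre, matricellular and proteoglycan genes were all higher. Tgfbi, a matrix protein placed in the BMP and TGF-beta list, was called lower. Type IV collagen is the sheet on which endothelium and epithelium rest. Col4a1 had ratios of 0.95, 1.15, 0.88 and 0.57, a mean of 0.89 ± 0.24 or 1.85-fold (adjusted p = 1.34e-06), and its partner chain Col4a2 had 0.67, 1.06, 0.64 and 0.43, a mean of 0.70 ± 0.26 (adjusted p = 0.00121). Replicate 2 was the highest and replicate 4 the lowest for both chains. Col18a1, the source of endostatin, averaged 0.72 ± 0.13 (adjusted p = 2.5e-07) and the fibrillar Col3a1 0.32 ± 0.08 (adjusted p = 0.000159). Of 16 collagen and collagen-processing genes 4 rose and none fell, against 1.81% and 1.36% of all features, with a median of 0.16. Col1a1 (0.22) and Col1a2 (0.29), the chains of the main fibrillar collagen, did not pass. With pair means as the unit Col4a2 (adjusted p = 0.146) and Col3a1 (adjusted p = 0.0811) did not pass.

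Among 23 genes of elastic fibres, matricellular proteins and proteoglycans 4 rose and none fell, against 1.81% and 1.36% of all features. The median was 0.02, and with a common spread 7 were higher and 2 lower. Tnc encodes tenascin-C, a matrix protein of remodelling vessel walls, and had ratios of 0.71, 0.66, 0.82 and 0.72, a mean of 0.73 ± 0.07 (adjusted p = 7.12e-07). Mgp, an inhibitor of calcification and of BMP signalling, averaged 0.56 ± 0.09 (adjusted p = 1.98e-06), and Lum, a proteoglycan that binds collagen fibrils, 0.43 ± 0.08 (adjusted p = 0.000124). All 4 arrays were above 0 for each of them. Sparc, which binds collagen, averaged 0.40 ± 0.06 (adjusted p = 0.0173) and did not pass without replicates 1, 2 or 3 (adjusted p = 0.0853, 0.104 and 0.103). Mfap4, a microfibril protein, averaged 0.42 ± 0.17 and did not pass (adjusted p = 0.122), nor did Fn1 (0.32) or the small proteoglycan Dcn (-0.31).

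Contractile and cytoskeletal genes of smooth muscle had 4 of 13 higher and none lower, against 1.81% and 1.36% of all features. Their median was 0.10. Without replicate 1 the list had 1 higher, and without each of the other 3 arrays 2. Smtn, a marker of contractile smooth muscle, averaged 0.49 ± 0.10 (adjusted p = 0.000329). The other 3, Mcam, a surface protein of vascular cells (0.40 ± 0.04), and the adhesion proteins Actn1 (0.33 ± 0.25) and Vcl (0.27 ± 0.11), did not hold when single arrays were left out. Mcam had an adjusted p of 0.142, 0.216, 0.155 and 0.15 without replicates 1 to 4 in turn. Actn1 had 0.0725, 0.0946 and 0.57 without replicates 1, 3 and 4, and Vcl 0.136 and 0.0932 without replicates 1 and 2. Cnn1 (-0.15), Myl9 (-0.05) and Mylk (-0.03), which belong to the contractile apparatus, did not pass.

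In BMP and TGF-beta signalling, whose receptor Bmpr2 is mutated in heritable pulmonary hypertension in humans, 4 of 23 genes rose and 1 fell. The shares over all features were 1.81% and 1.36%. The list's median was 0.10, and with a common spread 10 were higher and 5 lower. Id3, a BMP target, averaged 0.46 ± 0.19, the BMP mediator Smad1 0.32 ± 0.08, the corepressor Tgif1 0.31 ± 0.05 and the SMAD inhibitor Skil 0.31 ± 0.13. Tgfbi, a matrix protein induced by TGF-beta, fell by 0.58 ± 0.15 (adjusted p = 0.00189). Leaving out any 1 of the 4 arrays left 1 member higher. Id3 had an adjusted p of 0.0807 and 0.145 without replicates 1 and 2, Smad1 of 0.0601 and 0.0846 without replicates 3 and 4, and Tgif1 of 0.0627 to 0.131 over the 4 omissions. With pair means as the unit no member passed, Tgfbi included (adjusted p = 0.218). Bmpr2 had ratios of -0.47, -0.63, -0.17 and -0.05, a mean of -0.33 ± 0.26 that did not pass (adjusted p = 0.319). Replicates 1 and 2 alone gave -0.55 (adjusted p = 0.0139) and replicates 3 and 4 gave -0.11 (adjusted p = 0.439). Tgfbr3, the co-receptor betaglycan, averaged -0.36 ± 0.24 and did not pass (adjusted p = 0.527).

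Genes of cell division had calls in 1 direction. Of 62 tested 5 rose and none fell, against 1.81% and 1.36% of all features. The median was 0.09, and 24 were higher on all 4 arrays, against 11.1% of all features. With a common spread 16 were higher and 2 lower. Cdk1, the kinase that drives entry into mitosis, had ratios of 1.00, 1.27, 0.61 and 0.62, a mean of 0.87 ± 0.32 (adjusted p = 1.05e-07), with replicates 1 and 2 above 3 and 4. Top2a, the topoisomerase of dividing cells, had ratios of 0.63, 0.71, 0.66 and 0.67, a mean of 0.67 ± 0.03 (adjusted p = 2.05e-08), although its 2 spots gave 0.94 and 0.40. Ccnd1 (0.48 ± 0.11), Ccna2 (0.48 ± 0.09) and the mitotic survival factor Birc5 (0.40 ± 0.13) were the other 3. The replication helicase genes Mcm2, Mcm3 and Mcm7 (0.06, 0.00 and 0.01) and the proliferation antigen Mki67 (0.00) were not called.

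Immediate early and stress genes had 5 of 17 higher and 1 lower, against 1.81% and 1.36% of all features, with a median of 0.15. Atf3, a stress-induced repressor, averaged 0.57 ± 0.12 (adjusted p = 2.83e-05) and Myc 0.50 ± 0.09 (adjusted p = 0.000412). With pair means as the unit 1 member was higher and 1 lower, and Myc did not pass (adjusted p = 0.0584). With the replicate pair as a random block 3 were higher. Zfand2a, a stress-inducible zinc finger gene, averaged 0.44 ± 0.21 and did not pass without replicate 4 (adjusted p = 0.0781), when 3 of the list were higher. Klf4 (0.31) and Fosl2 (0.29) were the other 2. Rgs2, a brake on Gq signalling in smooth muscle, fell by 0.44 ± 0.07 (adjusted p = 1.01e-06). Fos (-0.10), Jun (0.05) and Egr1 (0.13) did not pass.

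The 2 lowest ratios belonged to genes known from myeloid cells. S100a9, a subunit of calprotectin that fills the cytosol of neutrophils, had ratios of -3.40, -3.45, -3.11 and -3.04, a mean of -3.25 ± 0.20 (adjusted p = 8.53e-21). Stfa1, a cysteine protease inhibitor of mouse myeloid cells, had -2.10, -2.09, -2.22 and -1.95, a mean of -2.09 ± 0.11 (adjusted p = 0.000412). The 4 arrays nearly coincided for both. In the list of neutrophil granule and S100 genes 3 of 6 fell, against 1.36% of all features. The list's median was -0.21, while 1 member was higher with a common spread. Ltf, lactoferrin, averaged -0.39 ± 0.10 and Csf3r, the receptor for granulocyte colony-stimulating factor, -0.28 ± 0.10. With any 1 array left out S100a9 was the list's only call, with an adjusted p of 0.0673 to 0.215 for Ltf and of 0.0604 to 0.224 for Csf3r over the 4 omissions. Lcn2, another granule protein, stood at 0.38 and was not called. The S100a9 ratio swung between days, from 0.31 at day 1 and 0.19 at day 22 to -2.97 at day 28.

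Ppbp, a chemokine stored in platelets, had ratios of -0.91, -1.11, -0.89 and -0.35, a mean of -0.81 ± 0.33 (adjusted p = 1.23e-07). Ighm, the IgM heavy chain of B cells, had -0.73, -0.64, -0.69 and -0.79, a mean of -0.71 ± 0.06 (adjusted p = 9.29e-07), and was the only call among 5 lymphocyte genes. Both were below 0 on every array. The lymphocyte list had a median of -0.06, with 2 of its 5 members above 0, and 1.36% of all features were called lower. Among 10 macrophage and monocyte genes Cybb, the catalytic subunit of the phagocyte NADPH oxidase, fell by 0.50 ± 0.16 (adjusted p = 7.5e-05), while the complement genes C1qa (0.30) and C1qb (0.33) did not pass. Cybb was the only call of that list, whose median was -0.02 with 4 of the 10 above 0. The genes that follow are from outside these lists. Selplg, the selectin ligand PSGL-1, averaged -0.65 ± 0.19 (adjusted p = 1.62e-05) and Lilr4b, an immunoglobulin-like receptor of myeloid cells, -0.69 ± 0.19 (adjusted p = 0.00119), which did not pass with the replicate pair as a random block (adjusted p = 0.0534). Rac2, a GTPase of blood cells, averaged -0.56 ± 0.09, Ptpn6, the phosphatase SHP-1, -0.63 ± 0.08 and Alox5ap, which presents arachidonate for leukotriene synthesis, -0.57 ± 0.11. Ptpn6 did not pass without replicate 1 (adjusted p = 0.0659), and Alox5ap did not pass with any 1 array left out (adjusted p = 0.0727 to 0.17). With pair means as the unit Rac2 (adjusted p = 0.208) and Cybb (adjusted p = 0.0868) did not pass either.

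Calls among airway genes were lower as well. In the airway and cilia list 3 of 13 genes fell and none rose, against 1.36% and 1.81% of all features. The median was -0.20, and 6 fell with a common spread. Tppp3, a tubulin-binding protein of ciliated cells, had ratios of -0.55, -0.27, -0.50 and -0.92 and averaged -0.56 ± 0.27 (adjusted p = 0.0012). Cbr2, a carbonyl reductase of club cells, had -0.54, -0.49, -0.42 and -0.46 and averaged -0.48 ± 0.05 (adjusted p = 0.00324). Aldh1a1, a retinaldehyde dehydrogenase, split by pair, with -0.81 and -0.83 in replicates 1 and 2 and -0.17 and -0.25 in replicates 3 and 4. It did not pass without replicate 1 or 2 (adjusted p = 0.206 and 0.226), and Tppp3 and Cbr2 did not pass with pair means as the unit (adjusted p = 0.129 and 0.293). In the alveolar list 1 of 16 fell, Etv5, a factor of type II cells, at -0.49 ± 0.13, which did not pass with any 1 array left out (adjusted p = 0.0553 to 0.161). The surfactant genes Sftpd (-0.21) and Abca3 (0.01) were not called.

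Several genes outside these lists had large ratios. Peg3, an imprinted zinc finger gene, had ratios of 1.35, 1.28, 1.16 and 1.03, a mean of 1.20 ± 0.14 (adjusted p = 5.91e-14), and no array of another day reached these values. Sorbs2, an adaptor of the actin cytoskeleton, had 1.05, 0.90, 0.96 and 0.92, a mean of 0.96 ± 0.06 (adjusted p = 7.45e-11). Cd200, a surface protein that restrains myeloid cells, averaged 0.94 ± 0.22, Dach1, a transcriptional cofactor, 0.89 ± 0.10 and Pde4b, a phosphodiesterase that degrades cyclic AMP, 0.87 ± 0.06. Cxcl12, the chemokine that retains CXCR4+ cells, averaged 0.67 ± 0.13 (adjusted p = 4.47e-05) and was the single call among 7 cytokine and acute phase genes. Igfbp5, which binds insulin-like growth factors, had -0.59, -0.83, -0.54 and -0.61, a mean of -0.64 ± 0.13 (adjusted p = 7.95e-07). Srsf5, a splicing factor, averaged -0.59 ± 0.06. Add3, which caps actin filaments, averaged -0.63 ± 0.39 with replicate 4 at -1.21, and it did not pass with any 1 array left out (adjusted p = 0.0939 to 0.499).

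Glycolysis genes and targets of hypoxia-inducible factor had 2 of 30 higher and 2 lower, against 1.81% and 1.36% of all features. Their median was -0.02. Slc2a3, the glucose transporter GLUT3, had ratios of -0.83, -0.84, -0.78 and -0.70, a mean of -0.79 ± 0.06 (adjusted p = 0.000163), and Igfbp3 averaged -0.38 ± 0.10. Hmox1, the inducible heme oxygenase, averaged 0.59 ± 0.06 (adjusted p = 3.43e-05) and Hif1a itself 0.30 ± 0.08. Igfbp3 did not pass without replicate 3 (adjusted p = 0.0634) and Hif1a without replicate 4 (adjusted p = 0.0771). Ldha (0.06), Pgk1 (-0.02) and Slc2a1 (-0.01) were near 0. Among 32 antioxidant genes Hmox1 and the metallothionein Mt2 (0.51 ± 0.11) rose, and the glutathione transferases Gstm1 (-0.48 ± 0.06) and Gstm2 (-0.33 ± 0.09) fell. Replicates 1 and 2 alone gave 4 higher and none lower, replicates 3 and 4 alone 1 higher and 5 lower, and a common spread 3 higher and 9 lower. Gstm2 did not pass without replicate 2 or 4 (adjusted p = 0.0963 and 0.0572), and Mt2 (adjusted p = 0.0926) and Gstm1 (adjusted p = 0.135) did not with pair means as the unit.

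No member was called among 68 ribosomal protein genes (median 0.00), 54 genes of oxidative phosphorylation (-0.01), 44 of the proteasome and ubiquitin system (-0.04), 15 interferon-inducible genes (-0.06) and 6 of cardiac and skeletal muscle (0.12). The pairs differed, with a ribosomal median of 0.12 in replicates 1 and 2 and of -0.12 in replicates 3 and 4. For oxidative phosphorylation the medians were 0.03 and -0.08. Replicates 3 and 4 alone called 3 ribosomal and 2 oxidative phosphorylation genes lower, against 2.28% of all features. Over all 4 arrays single calls came from 11 clock genes, 28 lipid genes and 7 adipose genes. Tef, a clock-controlled factor, averaged -0.37 ± 0.07 and did not pass with any 1 array left out (adjusted p = 0.0984 to 0.219). Lpl, lipoprotein lipase, which is in both of the last 2 lists, averaged -0.37 ± 0.19 and did not pass without replicate 1 or 2 (adjusted p = 0.103 and 0.106). Of 601 genes in the 27 lists, 48 rose and 19 fell, against 1.81% and 1.36% of all features.

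**Figure D4:**
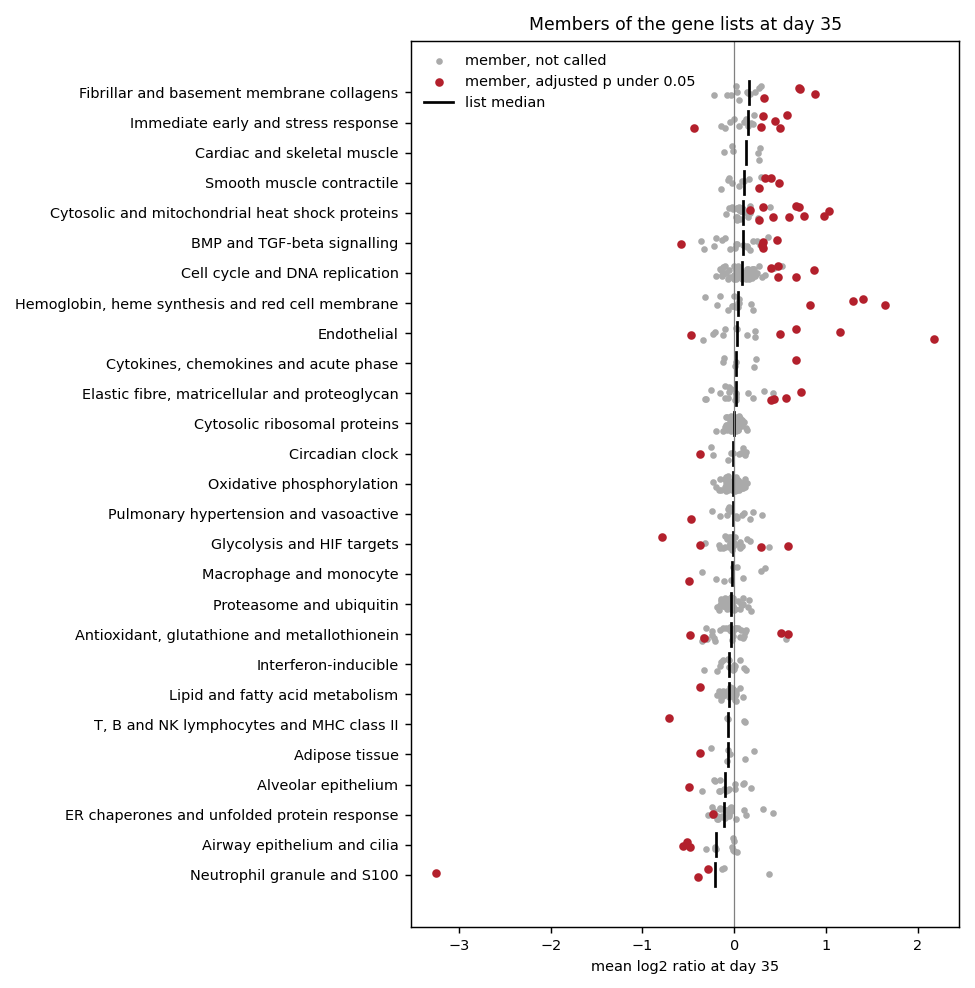
Mean log2 ratio at day 35 of the members of 27 gene lists, 1 row per list ordered by its median (black bar), with members that passed in red and the others in grey. Heat shock, collagen and cell cycle lists have red points to the right only, the neutrophil and airway lists to the left only. Ribosomal and oxidative phosphorylation genes lie close to 0 in this mean over both replicate pairs.

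Day 35 was then set against the mean of days 22, 24 and 28, to ask how the last recovery day differed from the earlier ones. Each day had its own control pool, so in a difference between days the exposed pools and the control pools cannot be told apart. Of 12319 features 311 differed (2.52%), 241 higher (1.96%) and 70 lower (0.568%) at day 35. That is 77.5% higher, against 54.1% of 973 calls with arrays brought to a common spread. The count rested on which days were averaged, with 190 calls without day 28 and 732 without day 22.

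Among named genes, 91 were called higher with all day 35 arrays above all 12 earlier recovery arrays, and 21 were called lower with all below. Called or not, 120 of 6486 genes lay apart above and 61 below. Prnd was 1.55 ± 0.16 (SE) above the mean of the earlier days (adjusted p = 2.29e-08). Among those 91 genes Hsph1 came next with 1.29 ± 0.14, having stood at -0.50, -0.11 and -0.32 on days 22, 24 and 28. Hbb-b1 (1.36), Got2 (1.23), Phtf1 (1.20) and Cd93 (1.14) were also called, but not all their day 35 arrays lay above the earlier ones. Col4a1 was 1.09 ± 0.13 higher after 0.35, -0.29 and -0.67 on those days, and Hspa8 1.09 ± 0.14 higher after -0.47, -0.27 and -0.73. The heat shock list had 14 members higher than on the earlier recovery days and none lower, against 1.96% and 0.568% of all features. The ER list had 2 higher (Canx and Dnajb9) and none lower. Hba-x (1.08), Peg3 (1.07), Cd200 (1.02) and Dnaja1 (0.99) completed the largest differences among the 91 genes that lay apart. Emcn (0.81, adjusted p = 0.000426) and Top2a (0.85, adjusted p = 6.4e-09) were also higher at day 35.

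On the lower side Cirbp, a cold-inducible RNA-binding protein, was -0.40 at day 35 and 0.10, 0.30 and 0.83 on days 22, 24 and 28, a difference of -0.81 ± 0.14 (adjusted p = 0.000344). Gas1, a growth arrest protein, was -0.28 at day 35 after 0.17, 0.32 and 0.56, a difference of -0.62 ± 0.06 (adjusted p = 1.26e-08). Both genes were named by the rule that all 4 arrays lay below all earlier recovery arrays, so this separation was set by selection. Igfbp5 (-0.61), Tppp3 (-0.60), the TNF receptor family member Tnfrsf19 (-0.49), Ighm (-0.43), Alad (-0.41) and the small membrane protein Snn (-0.41) also differed. Of these Ighm, Alad, Snn and Tppp3 did not pass without 1 of the arrays, with an adjusted p of 0.0598 and 0.0778 for Ighm without replicates 1 and 4 and of 0.0718 to 0.0932 for Alad without replicates 1, 2 and 3. It was 0.113 and 0.058 for Snn without replicates 3 and 4, and 0.0595 for Tppp3 without replicate 4. Without day 28 Alad and Snn did not pass (adjusted p = 0.198 and 0.0932), and without day 24 Ighm did not (adjusted p = 0.0878). With pair means as the unit 5 of these 8 genes did not pass, Cirbp (adjusted p = 0.116), Tppp3 (0.202), Ighm (0.323), Alad (0.476) and Snn (0.516).

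**Figure D5:**
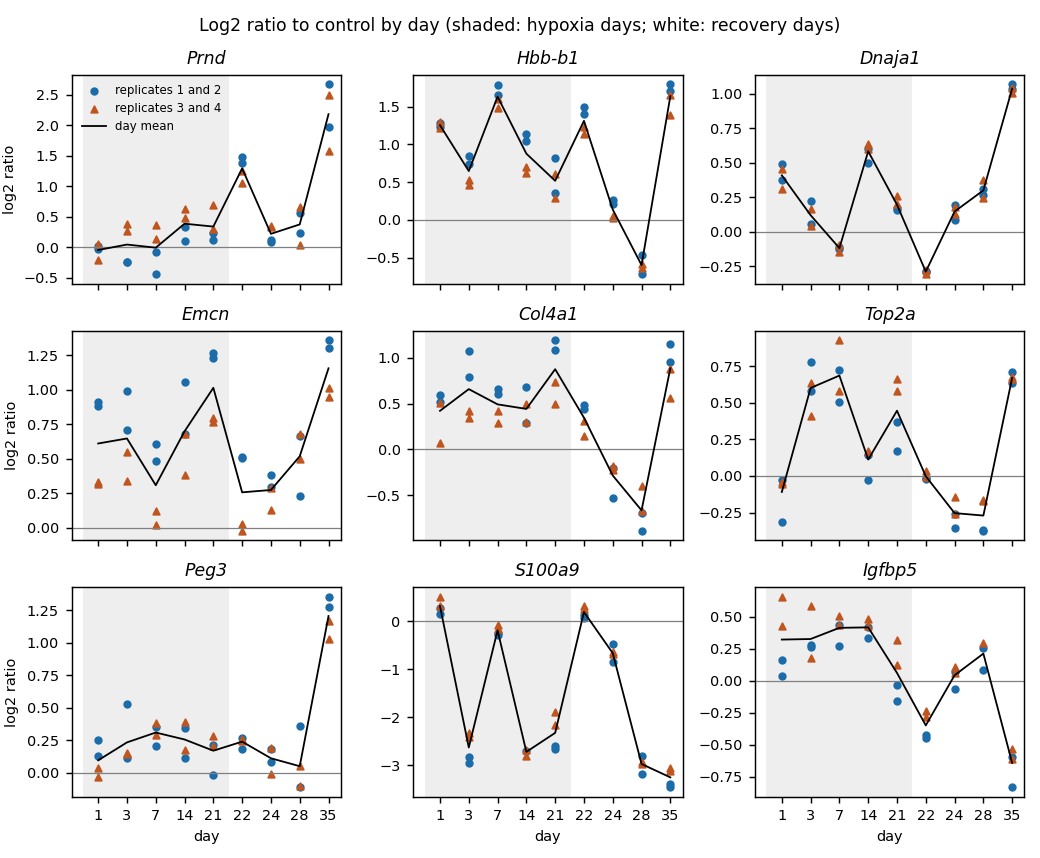
Log2 ratio to control on each array for 9 genes over the 9 days, evenly spaced, with replicates 1 and 2 as circles, 3 and 4 as triangles, the day mean as a line and hypoxia days shaded. The genes were picked after their values were seen: Prnd, Peg3 and Dnaja1 are highest at day 35, Col4a1 and Top2a are below 0 at day 28 and above it at day 35, S100a9 alternates between values near 0 and near -3, and Igfbp5 is lowest at day 35.

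Set against the mean of the 5 hypoxia days, day 35 differed in 1263 of 12193 features (10.4%), 607 higher (4.98%) and 656 lower (5.38%). That is 48.1% higher, against 58.9% of 1191 calls with each array centred on its median. Without replicates 1, 2, 3 and 4 the count was 780, 858, 720 and 562, and without day 7 it was 792. Of 6451 genes with a name and a value on all 4 day 35 arrays, 73 were called higher with these arrays above all 20 hypoxia arrays. On the lower side 33 were called and apart. Called or not, 76 of the 6451 lay apart above and 34 below.

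Some of these genes were near control at day 35 and away from it under hypoxia. Cdk19, a kinase of the Mediator complex, averaged 0.28 ± 0.17 at day 35, against day means of 1.5 to 1.95 under hypoxia, a difference of -1.40 (adjusted p = 2.45e-13). Its value against control did not pass without replicates 1, 3 or 4 (adjusted p = 0.131, 0.193 and 0.342). Cd93, a lectin-like receptor of endothelium, averaged 0.23 ± 0.22 without passing, against -2.0 to -0.97 under hypoxia, a difference of 1.51 (adjusted p = 6.82e-05). Nr1d2, a clock repressor, averaged -0.25 ± 0.19, against -1.70 to -0.84, and Spon2, a matrix protein, -0.06 ± 0.19, against 0.79 to 1.25. These 4 genes met the naming rule that no day 35 array overlapped a hypoxia array, so this separation was set by selection. Mest, Mfge8 and Alpl had means of 0.09, 0.01 and -0.07 at day 35, against 0.42 to 0.83, 0.34 to 0.72 and 0.32 to 0.65 over the hypoxia days, with adjusted p of 6.44e-06, 0.0244 and 0.000816 for the difference. Arntl, the clock activator, averaged -0.01, against 0.37 to 1.55 under hypoxia (adjusted p = 0.001).

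For other genes day 35 lay farther from control than the hypoxia days or on the other side of it. Prnd was 2.04 above its hypoxia mean (adjusted p = 3.44e-11), Pde4b 1.18, Sorbs2 1.00, Peg3 0.99, Pdlim5, an adaptor of muscle Z-discs, 0.93, and Dach1 0.87. S100a9, with a hypoxia mean of -1.51, differed by -1.74, Ltf by -1.08, Igfbp5 by -0.95, Ighm by -0.79, the chondroitin sulphotransferase Chst12 by -0.64 and Tnfrsf19 by -0.59. The Chst12 difference did not pass with pair means as the unit (adjusted p = 0.0981). Against control at day 35, Chst12 did not pass (adjusted p = 0.407), Pdlim5 did not without replicates 1, 2 or 3 (adjusted p = 0.102, 0.109 and 0.0542), and Tnfrsf19 did not with any 1 array left out (adjusted p = 0.0909 to 0.215). Col4a1 (adjusted p = 0.119) and Tnc (adjusted p = 0.338) did not pass in this comparison, and Col3a1, at 0.15 to 1.11 under hypoxia, differed by -0.39 at day 35 from its hypoxia mean (adjusted p = 5.23e-05).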

How the data were processed

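Each of the 36 arrays compared pooled lung RNA of 5 mice exposed to hypoxia with that of 5 control mice. Per the labels' protocols, images were read with GenePix Pro 4.0, background was corrected, poor spots were removed and the authors deposited lowess-normalised log2 ratios of median intensities, which were used as they stand. Each array was centred at a mean of 0 in the deposit, with no common spread. The intensities of the 2 channels were not analysed here, so brightness against background is unknown. Columns that match no sample numbered 0.

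Gene names came from the platform annotation, in which 9598 of 15388 spots had 1 symbol, 514 several and 5276 none, and 9510 matched the RefSeq table by identifier with 0 symbols changed. Spots of a gene were averaged (6971 genes), others stayed single, giving 12761 features. All 30 named genes with over 1 spot had spot means of a single sign.

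limma 3.58.1 in R 4.3.3 fitted a mean per day over 36 arrays (lmFit, eBayes), with the day 35 mean tested against 0 and against the mean of days 22, 24 and 28 or of the 5 hypoxia days. Tests were two-sided with Benjamini-Hochberg adjustment over all features and a threshold of 0.05. Features needed values on 3 of 4 day 35 arrays, and on 2 arrays of each other day in the differences. Each pair was fitted alone on its 18 arrays.

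The members, the 27 gene lists and the named genes were chosen with earlier results of these data known. Named genes (104, of which 79 were called) are the 15 largest called ratios in each direction with a single sign on 4 arrays, up to 6 called in both pairs, up to 8 in each direction whose day 35 arrays lie apart from the other days, up to 4 called members of each list, or 2 with the lowest p, and 16 chosen genes. Other list members are named as examples with their values. The test against control was tested on simulated data with 7556 genes. It recovered 90.8% of 98 whose day 35 ratio was set to 0.5 in size and 100% of 100 set to 1, and 11 of 200 calls were of unchanged genes. The simulated noise was independent between arrays, whereas the real arrays correlate within pairs (consensus correlation 0.43). These rates therefore check the fit and do not carry over to the calls in these data. Alternatives covered centring, spread, missing values, spots, pair means, blocks, pairs and arrays or days left out.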

Additional observations from a re-analysis of the deposited data

Results flagged for a closer look

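For 2 of 104 named genes 1 of the 4 day 35 arrays stood far from the other 3. Chance would flag about 5.2 if the 4 arrays were independent. They correlate within pairs, and many of these genes were chosen for a single sign on all 4, so 5.2 is not a fair expectation here. The gap of the outlying array was 0.896 of the whole range for Add3 (replicate 4, at -1.21) and 0.881 for Tnfrsf19 (replicate 4, at -0.18), above Dixon's critical value for 4 values.

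Of 103 named genes tested, 52 differed at day 35 from the other recovery days by the test of the difference itself, against 2.52% of all features. The named genes were chosen in part by this test and by large day 35 ratios, so a high share was built in. Given here are the 16 that were named because their 4 arrays lay apart from those days. Higher at day 35 were Prnd (1.55), Hsph1 (1.29), Col4a1 (1.09), Hspa8 (1.09), Hba-x (1.08), Peg3 (1.07), Cd200 (1.02) and Dnaja1 (0.99). Lower were Cirbp (-0.81), Gas1 (-0.62), Igfbp5 (-0.61), Tppp3 (-0.60), Tnfrsf19 (-0.49), Ighm (-0.43), Alad (-0.41) and Snn (-0.41).

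From the hypoxia days 67 of 102 differed by the same kind of test, 16 of them named because their arrays lay apart. The share over all features was 10.4%, and here too the choice of genes built in a high share. Prnd (2.04), Cd93 (1.51), Pde4b (1.18), Sorbs2 (1.00), Peg3 (0.99), Pdlim5 (0.93), Dach1 (0.87) and Nr1d2 (0.85) were higher at day 35. S100a9 (-1.74), Cdk19 (-1.40), Ltf (-1.08), Spon2 (-1.05), Igfbp5 (-0.95), Ighm (-0.79), Chst12 (-0.64) and Tnfrsf19 (-0.59) were lower.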

How the results depend on the processing

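With no limit here from depth, which ratios do not show, the 4 arrays in 2 pairs set the precision. Day 35 against control had 394 calls, and 387 to 445 with median centring, other limits on missing values or single spots. It had 1383 with a common spread, 110 with pair means as the unit, 171 with the replicate pair as a random block (consensus correlation 0.43), 255 in replicates 1 and 2 alone, 671 in replicates 3 and 4 alone, 330 with the 4 arrays alone and 228 to 261 with 1 array of day 35 left out. Against the other recovery days 311 calls became 973 with a common spread, 75 with pair means, 117 with the random block, 146 and 203 in replicates 1 and 2 and in 3 and 4 alone, 732 without day 22, 190 without day 28, and 221 to 232 with 1 array left out. Against the hypoxia days 1263 calls became 79 with pair means, 251 with the random block, 528 in replicates 1 and 2 alone, 792 without day 7 and 562 to 858 with 1 array left out. With the replicate number as a block the 3 counts were 603, 556 and 2003. Same-numbered arrays of different days deviated together with r of 0.09 to 0.66 (median 0.42, over 0.1 in 31 of 32 cases), and 20 of 32 correlated best with their own number. The numbers were not taken as pairing the samples because the labels give no such link and 1 of these r fell under 0.1. The block made calls of 6 named genes that did not pass otherwise, Bmpr2 (adjusted p = 0.00575), Nr1d2 (0.00674), Hsp90b1 (0.0115), Mfap4 (0.014), Cirbp (0.00271) and Snn (0.00266), and a common spread did so for 17. Leaving out replicate 1 of day 28, the array of widest spread, was added after seeing the data and gave 434, 296 and 1461. No named gene called under a setting had the opposite sign to its reported value there, although the share of calls that were higher crossed an even split under a common spread and under median centring. Of the 79 named genes called at day 35, 37 did not pass with pair means, 29 with the random block and 24 with at least 1 array left out, and 10 of these with each of the 4. Why the settings moved the calls was not tested, beyond the smaller number of units in the pair means.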
